A study of Mus musculus with 9 samples.

Results

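The genes described here encode the enzymes that make cholesterol and fatty acids, the proteins that control them through the sterol regulatory element binding proteins (SREBPs), and the proteins that move sterols into, within and out of the cell. They were chosen by name, from pathway knowledge and with earlier results of these data known. They are 42 of the 52780 genes in the deposited count table and fall into 7 steps. Enzymes of the mevalonate step (6 genes), of the isoprenoid and squalene step (5) and of the step from lanosterol to cholesterol (9) together make the 20 enzymes of sterol synthesis. Ggps1 is counted among them, although it leads off to prenylated proteins instead of sterols. The other steps hold 5 genes of SREBP control, 8 of sterol uptake, transport and export, 5 of fatty acid synthesis and 4 desaturases. All 42 genes passed the filter on low counts that left 19545 genes for testing.

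mRNA was sequenced in C2C12 cells, an immortal mouse myoblast line that fuses into myotubes when serum is withdrawn, at day 4 of differentiation. The study compared cells depleted of macroH2A1.1 or of macroH2A1.2, the 2 splice isoforms of the histone variant macroH2A1, with control cells. Each group had 3 samples, named si mH2A1.1 and si mH2A1.2 for the depleted isoform and si Ctrl for the controls, and received siRNA at 10 nM, delivered by lipofection before and during differentiation. The labels call the controls Wild Type, and the study's methods list a scramble siRNA for them. All groups are of this 1 cell line. Libraries held 36924252 to 42223108 counts. Levels are given as CPM, counts scaled to the effective library size by edgeR, with the 3 values of a group always in the order of replicates 1, 2 and 3.

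H2afy (chr13:56073619-56136361 in GRCm38), the gene of both isoforms, is counted as a whole, so the counts do not separate them. It stood at 56.3, 62.4 and 61.03 CPM with si Ctrl, 38.8, 30.01 and 30.9 CPM with si mH2A1.1 and 46.8, 47.2 and 43.2 CPM with si mH2A1.2, with every knockdown sample below every control. Depletion of macroH2A1.1 gave -0.85 ± 0.11 on the log2 scale (± standard error throughout, adjusted p = 0.00331), which passed the threshold, and depletion of macroH2A1.2 gave -0.39 ± 0.11, adjusted p = 0.108. Myotube markers such as myogenin were abundant in all 9 samples, with a summed level of 10 markers between 16249 and 28265 CPM. Adipocyte markers summed to 0.272 to 1.57 CPM, and 3 of the 5 were too low to be tested, while Fabp4 was lower with si mH2A1.2 in the fit with the replicate block alone (adjusted p = 0.0163). In that fit 1 of the tested adipocyte markers was lower with si mH2A1.1 too.

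Cholesterol is made from acetyl-CoA through mevalonate, isoprenoid diphosphates, squalene and lanosterol. When the membranes of the endoplasmic reticulum are poor in sterol, Scap carries the SREBP precursors to the Golgi, where they are cleaved to transcription factors that switch on this pathway. When sterol is plentiful, Insig proteins retain Scap, and oxysterols activate the liver X receptors, which drive the export genes Abca1 and Abcg1. SREBP-1 acts more on fatty acid genes and SREBP-2 more on sterol genes. Cholesterol is a structural lipid of the plasma membranes that myoblasts join when they fuse.

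Promoter windows from RefSeq (GRCm38.p6, 250 bases before to 50 after a gene's start) were given for 33 of the 42 genes. The stretches below are those of the sterol enzymes with a window that were lower with each knockdown, and of Abca1, the gene that was higher, so that a reader can see what lies in front of the genes whose values follow. They are written 5′ to 3′ on the strand of the gene and end before the start site, and capitals mark a CCAAT box (CCAAT, or ATTGG where it lies on the other strand), the SREBP site TCACNCCAC or the E-box CACGTG.
Hmgcs1 (chr13:119690101-119690330, plus strand): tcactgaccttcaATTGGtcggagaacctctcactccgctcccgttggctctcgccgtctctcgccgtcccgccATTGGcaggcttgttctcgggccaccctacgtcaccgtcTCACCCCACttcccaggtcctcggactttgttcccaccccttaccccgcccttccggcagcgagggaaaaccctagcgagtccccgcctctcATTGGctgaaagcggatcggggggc
Pmvk (chr3:89454385-89454429, plus strand): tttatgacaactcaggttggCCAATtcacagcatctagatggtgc
Mvd (chr8:122443425-122443502, minus strand): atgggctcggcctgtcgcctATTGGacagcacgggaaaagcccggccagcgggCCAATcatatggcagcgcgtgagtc
Lss (chr10:76531523-76531567, plus strand): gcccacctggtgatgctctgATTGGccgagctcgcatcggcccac
Msmo1 (chr8:64733609-64733758, minus strand): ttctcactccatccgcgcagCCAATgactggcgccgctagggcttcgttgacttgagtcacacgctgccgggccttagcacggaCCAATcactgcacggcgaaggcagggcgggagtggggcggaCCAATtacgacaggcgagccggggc
Dhcr7 (chr7:143830109-143830189, plus strand): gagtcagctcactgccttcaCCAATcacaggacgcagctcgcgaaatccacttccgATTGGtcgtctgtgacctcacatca
Abca1 (chr4:53160017-53160062, minus strand): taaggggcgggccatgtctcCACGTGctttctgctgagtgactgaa

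Of the 17 sterol enzymes with a window, 16 had a CCAAT box in it. Among all RefSeq windows, 41.1% of genes had one, and among the genes tested here it was 42.9%. The letters of the SREBP site were found in the window of Hmgcs1 alone, where the match begins at position -137 from the start, beside 1.44% of all genes with a window. An E-box was found for 6 of the 33 genes (18.2%, against 8.09% of all genes and 10.9% of the genes tested), namely Hsd17b7, Sc5d, Dhcr7, Insig1, Scap and Abca1. The E-box of Dhcr7 lies in the window of another of its starts, not in the printed stretch. No window of these genes held the liver X receptor DR4 site, a direct repeat, and 0.015% of all windows did. Both strands were searched, and no 2 matches overlapped in the printed stretches. A match is a description of letters and not a measured binding site.

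With si mH2A1.1, 16 of the 42 genes fell and 1 rose (called where the adjusted p was at most 0.05), with a median log2 fold change of -0.31. Over all tested genes 11.1% were called (4.93% lower and 6.18% higher), and the median was -0.01. With si mH2A1.2, 10 genes fell and none rose, with a median of -0.34, where 2.35% of all genes were called (0.982% lower, 1.37% higher) around a median of 0.00. The replicate numbers were taken to pair the si mH2A1.2 and si Ctrl samples. With the replicate number as a block 16 genes fell and 1 rose with si mH2A1.2, where 5.14% of all genes were called. The block gave 20 lower genes and 1 higher with si mH2A1.1, where 20.8% of all genes were called. Both comparisons share the si Ctrl samples, so they are not independent of each other. In bulk RNA, fewer cells of a type and less RNA per cell cannot be told apart.

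Most of the genes that fell encode enzymes of sterol synthesis. Of its 20 enzymes, 13 fell after the first knockdown and 8 after the second, and none rose. With the replicate block 15 and 11 fell, and with DESeq2, another test, 16 and 15. DESeq2 called 8.95% and 2.97% of the 37475 genes with a count. The median log2 fold changes of the 20 enzymes were -0.70 and -0.80 in this order. All 20 enzymes had a negative value with si mH2A1.1 and 19 had one with si mH2A1.2, where the exception was Ggps1 (0.05 ± 0.09). For 17 of the 20 all 3 si mH2A1.1 samples were below all 3 controls, which holds for 16.7% of all tested genes, and for 17 all si mH2A1.2 samples were below the controls (10.8% of all genes). Of the 22 genes outside sterol synthesis, 3 fell and 1 rose with si mH2A1.1, and 2 fell with si mH2A1.2. With the replicate block 5 fell and 1 rose in each comparison. Under a stricter call (adjusted p below 0.01 and a log2 change of 0.8 or more either way), 5 of the 42 genes were lower and 1 was higher with si mH2A1.1, beside 1.8% of all genes, 1 was lower with si mH2A1.2 (0.179% of all genes), and none differed between the knockdowns (6.38% of all genes).

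The summed level of the 20 enzymes was 2027, 1972 and 2388 CPM with si Ctrl. It was 1499, 1357 and 1149.7 CPM with si mH2A1.1 and 1094, 1250.3 and 1420.2 CPM with si mH2A1.2, so the mean fell to 62.7% and 58.9% of the control mean and no knockdown sample reached a control. The control samples were not alike, since si Ctrl 3 was the highest of its group for 16 of the 20 enzymes. Within the knockdowns, si mH2A1.1 3 was the lowest of its group for 17 enzymes and si mH2A1.2 1 for 15. Without si Ctrl 3 the medians of the 20 enzymes were -0.57 and -0.63 on the log2 scale, and 7 and 4 of them were called lower. In that run 4.02% and 0.492% of all genes were called.

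**Figure D1:**
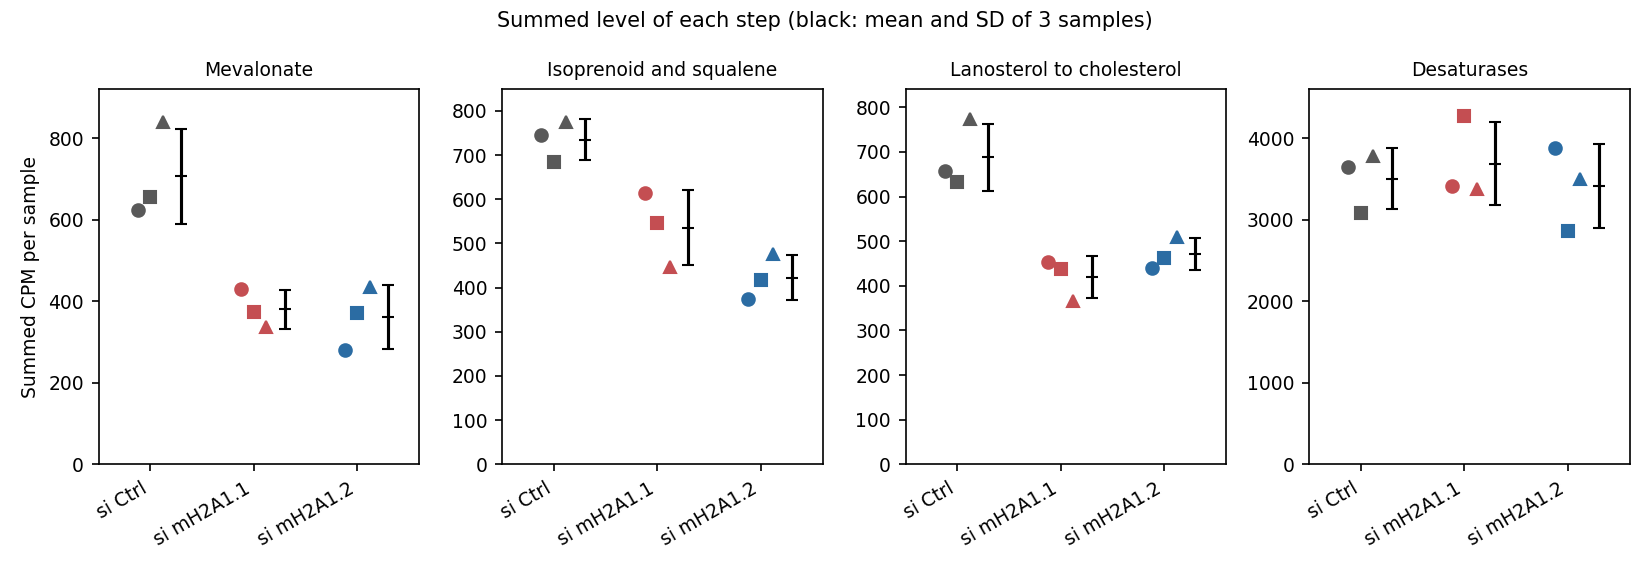
Summed CPM (vertical axis, from 0) of the genes of 4 steps in each of the 9 samples. Circles, squares and triangles are replicates 1, 2 and 3, and black marks give the mean and SD of 3 samples. In the 3 steps of sterol synthesis every knockdown sample lies below every control, while the desaturases (105% and 97.3% of the control mean) overlap. Among steps not plotted, the SREBP control genes also summed to less in every knockdown sample (at most 710.4 CPM, controls at least 765 CPM), as did fatty acid synthesis with si mH2A1.2 (at most 638 CPM, controls at least 691 CPM).

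The number of falls depended on single libraries, and so did the number of calls over all genes. Of the 16 genes lower with si mH2A1.1, 7 were still called lower without si Ctrl 2, 7 without si Ctrl 3, 10 without si mH2A1.1 1 and 6 without si mH2A1.1 3. In the same order 2.99%, 4.02%, 3.45% and 3.33% of all genes were called, against 11.1% with all samples. For si mH2A1.2 the count of lower genes was 4 without si Ctrl 1, 6 without si Ctrl 2, 5 without si Ctrl 3, 5 without si mH2A1.2 1 and 3 without si mH2A1.2 2. Over all genes 0.367%, 1.32%, 0.492%, 0.452% and 0.401% were called in these runs, against 2.35% with all samples. The median log2 fold change of the 20 enzymes lay between -0.80 and -0.57 for the first knockdown and between -0.89 and -0.63 for the second over the 9 runs that each left out 1 library.

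**Figure D2:**
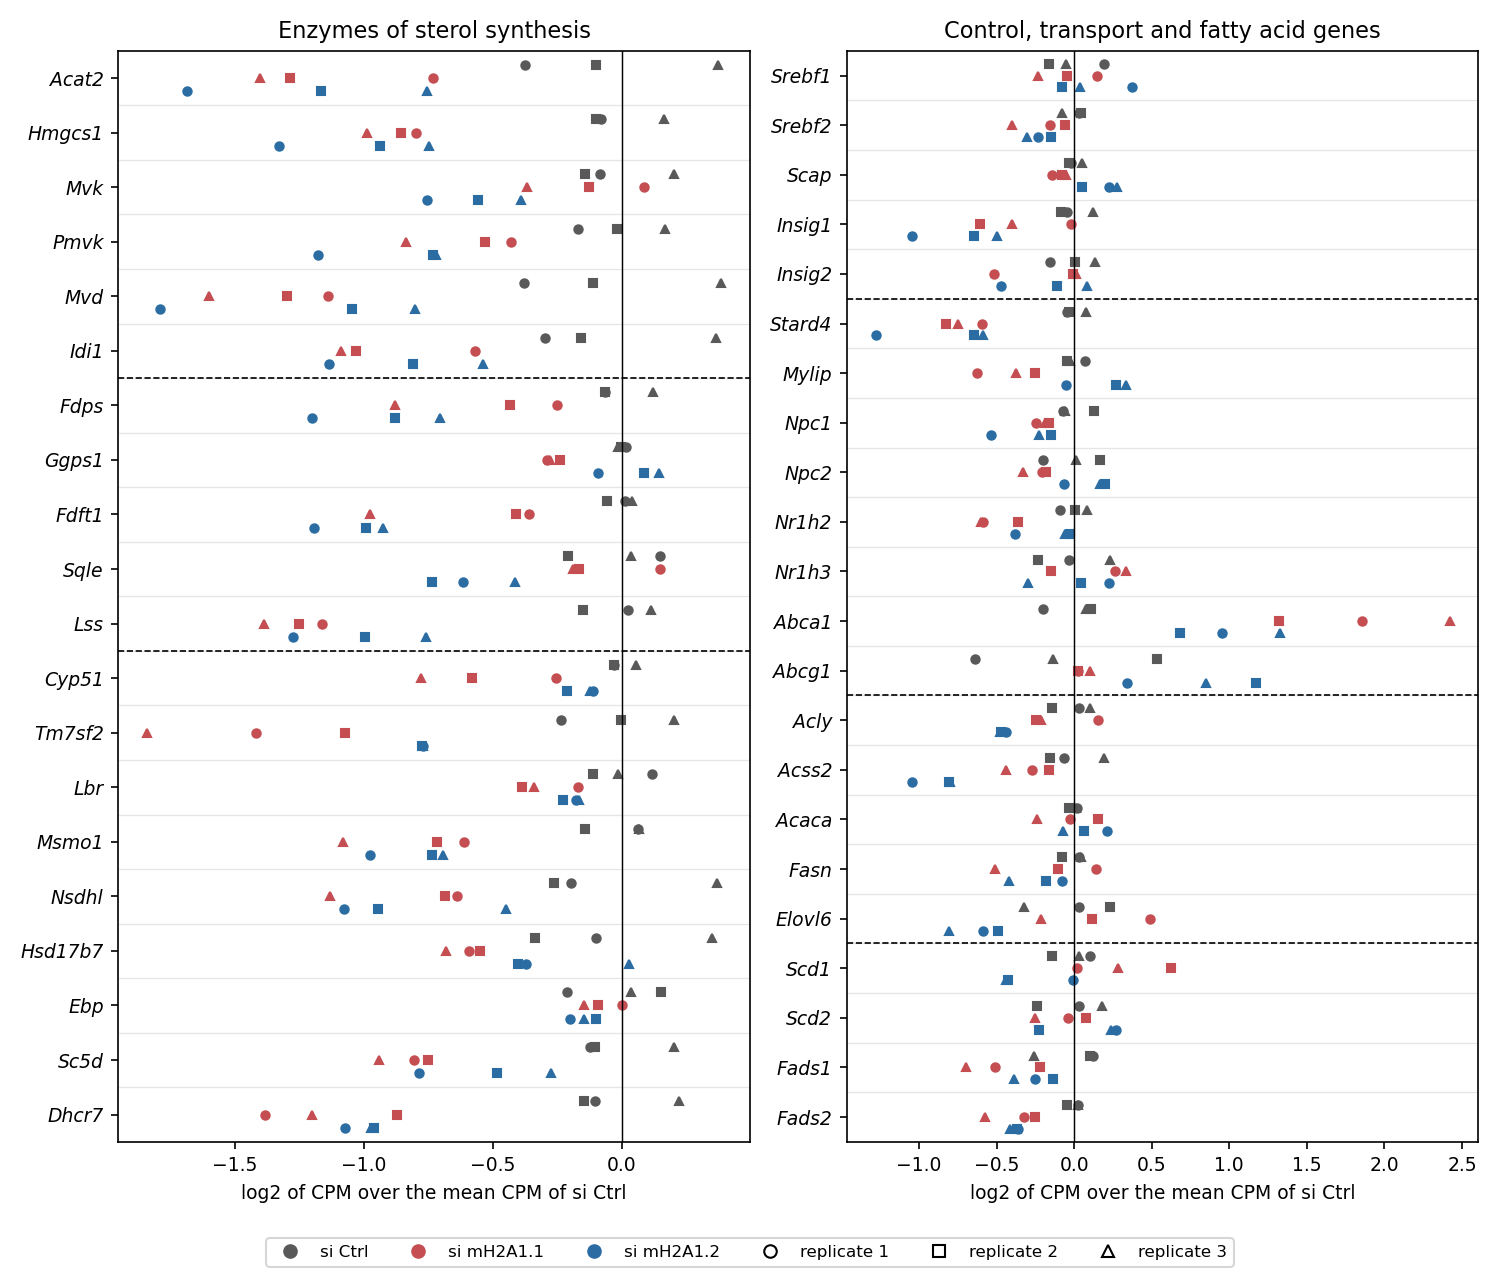
Level of each of the 42 genes in each sample, as log2 of the CPM over the mean CPM of the si Ctrl samples (horizontal axis), with the 20 enzymes of sterol synthesis on the left and the other 22 genes on the right. Dashed lines separate the steps, colours give the group and marker shapes the replicate. Most enzymes on the left have both knockdowns to the left of the controls, and Abca1 on the right has both to the right of them.

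The mevalonate step makes isopentenyl diphosphate, the building block of isoprenoids, and 5 of its 6 genes fell with si mH2A1.1 (median log2 fold change -0.88) and 3 fell with si mH2A1.2 (median -0.92, and 4 genes with the replicate block). Hmgcs1, the cytosolic synthase that forms HMG-CoA and the most abundant gene of this step per exon length (80.6 ± 8.34 RPKM with si Ctrl, mean ± SD, n = 3), was measured at 350.4, 346 and 414 CPM with si Ctrl, 213, 204 and 186 CPM with si mH2A1.1 and 147, 193 and 221 CPM with si mH2A1.2. On the log2 scale it fell in both (first -0.88 ± 0.15, adjusted p = 0.00748, then -0.99 ± 0.15, adjusted p = 0.0138, the si mH2A1.1 value being given first here and in like pairs). Neither knockdown overlapped the controls, and the change was -45.7% and -49.5%. Mvd, the decarboxylase that forms isopentenyl diphosphate, stood at 45.1, 54.3 and 76.7 CPM with si Ctrl, 26.6, 23.9 and 19.3 CPM with si mH2A1.1 and 16.96, 28.4 and 33.7 CPM with si mH2A1.2. It fell in both (-1.33 ± 0.26, adjusted p = 0.0134, and -1.16 ± 0.26, adjusted p = 0.0482), and si mH2A1.2 1 was the lowest sample. The kinase gene Pmvk was at 34.2, 37.97 and 43.2 CPM with si Ctrl, 28.5, 26.6 and 21.5 CPM with si mH2A1.1 and 16.98, 23.1 and 23.3 CPM with si mH2A1.2, and it also fell in both (-0.59 ± 0.16, adjusted p = 0.0382, and -0.86 ± 0.16, adjusted p = 0.0256).

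Acat2, whose thiolase joins acetyl-CoA units at the entry to the pathway, was measured at 70.1, 84.9 and 118 CPM with si Ctrl, 54.8, 37.3 and 34.4 CPM with si mH2A1.1 and 28.3, 40.6 and 53.95 CPM with si mH2A1.2. The fall with si mH2A1.1 passed (-1.11 ± 0.26, adjusted p = 0.0273), and with si mH2A1.2 the value was -1.15 ± 0.26, adjusted p = 0.0531, or 0.0441 with the replicate block. Idi1, the isomerase that readies isopentenyl diphosphate for chain growth, was at 105, 116 and 167 CPM with si Ctrl, 87.03, 63.2 and 60.8 CPM with si mH2A1.1 and 58.9, 73.6 and 89.00 CPM with si mH2A1.2. The fall with si mH2A1.1 passed the threshold (-0.88 ± 0.21, adjusted p = 0.0279) and that with si mH2A1.2 did not (-0.81 ± 0.21, adjusted p = 0.0811), although all 3 samples were below the controls. Mvk, the mevalonate kinase, was called in no comparison, at 11.3 to 21.9 CPM over the 9 samples. In the 9 runs that each left out 1 library, calls against si Ctrl with si mH2A1.1 were lost for Acat2 in 4 of the 9 runs (highest adjusted p = 0.1004, without si mH2A1.1 3), Pmvk in 6 of the 9 runs (highest adjusted p = 0.129, without si mH2A1.1 3), Mvd in 1 of the 9 runs (adjusted p = 0.0592, without si mH2A1.1 3) and Idi1 in 4 of the 9 runs (highest adjusted p = 0.103, without si mH2A1.1 3). With si mH2A1.2 they were lost for Hmgcs1 in 1 of the 9 runs (adjusted p = 0.0542, without si mH2A1.2 2), Pmvk in 5 of the 9 runs (highest adjusted p = 0.0822, without si Ctrl 3) and Mvd in 9 of the 9 runs (highest adjusted p = 0.146, without si Ctrl 3).

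In the isoprenoid and squalene step, farnesyl diphosphate is committed to sterols by squalene synthase or passed on to longer isoprenoids. In it 2 of its 5 genes fell with si mH2A1.1 (median log2 fold change -0.50) and 3 fell with si mH2A1.2 (median -0.92, and 4 genes with the replicate block). Lss (chr10:76531588-76557138 in GRCm38), the cyclase that makes lanosterol, had one of the clearest falls, at 98.9, 87.6 and 105 CPM with si Ctrl, 43.5, 40.9 and 37.1 CPM with si mH2A1.1 and 40.2, 48.7 and 57.5 CPM with si mH2A1.2. Both falls passed (-1.26 ± 0.13, adjusted p = 0.00189, and -0.99 ± 0.13, adjusted p = 0.00986), and both calls held in each of the 9 runs that left out 1 library. Fdft1, the squalene synthase, was at 172, 164 and 175 CPM with si Ctrl, 133, 128 and 86.7 CPM with si mH2A1.1 and 74.4, 85.6 and 89.7 CPM with si mH2A1.2. It fell in both comparisons (-0.56 ± 0.15, adjusted p = 0.0416, and -1.03 ± 0.15, adjusted p = 0.0132) and further with si mH2A1.2, with a difference between the knockdowns of 0.48 ± 0.15, adjusted p = 0.0454, which the replicate block moved to 0.0547. The si mH2A1.1 samples were split, with sample 3 near the si mH2A1.2 level. Of the exon bases of Fdft1, 18.3% overlap the cathepsin gene Ctsb on the opposite strand, and strandedness is not given in the sources used here.

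Fdps, the farnesyl diphosphate synthase and the highest of the step per exon length (60.5 ± 4.59 RPKM with si Ctrl), was at 244, 244 and 277 CPM with si Ctrl, 214, 189 and 139 CPM with si mH2A1.1 and 111, 138 and 156 CPM with si mH2A1.2. It fell with si mH2A1.2 (-0.92 ± 0.17, adjusted p = 0.02796), and with si mH2A1.1 the value was -0.50 ± 0.17, adjusted p = 0.0812. A predicted gene on the same strand, Gm43738, covers 26.7% of its exon bases. Sqle, the squalene epoxidase, did not move like its neighbours, at 195, 153 and 181 CPM with si Ctrl, 196, 157 and 155 CPM with si mH2A1.1 and 115, 106 and 132 CPM with si mH2A1.2. The si mH2A1.1 samples overlapped the controls (-0.06 ± 0.13, adjusted p = 0.7997), the si mH2A1.2 samples lay below them (-0.58 ± 0.13, adjusted p = 0.0553, and 0.0217 with the replicate block), and the level was 1.44-fold higher with si mH2A1.1 than with si mH2A1.2 (log2 difference 0.52 ± 0.13, adjusted p = 0.0208).

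Ggps1, which makes geranylgeranyl diphosphate for prenylated proteins instead of sterols, was at 36.3, 35.8 and 35.5 CPM with si Ctrl, 29.4, 30.4 and 29.6 CPM with si mH2A1.1 and 33.6, 38.1 and 39.6 CPM with si mH2A1.2. It was called in neither comparison with si Ctrl (adjusted p = 0.0767 and 0.848) and was lower with si mH2A1.1 than with si mH2A1.2 (-0.32 ± 0.09, adjusted p = 0.02901). For this step, the runs that left out 1 library lost the calls with si mH2A1.1 for Fdft1 in 7 of the 9 runs (highest adjusted p = 0.10, without si Ctrl 2), and with si mH2A1.2 for Fdps in 5 of the 9 runs (highest adjusted p = 0.0882, without si mH2A1.2 2) and Fdft1 in 3 of the 9 runs (highest adjusted p = 0.0542, without si mH2A1.2 2). Between the knockdowns they lost Ggps1 in 4 of the 9 runs (highest adjusted p = 0.103, without si mH2A1.2 2), Fdft1 in 8 of the 9 runs (highest adjusted p = 0.164, without si mH2A1.1 1) and Sqle in 2 of the 9 runs (highest adjusted p = 0.0882, without si mH2A1.2 2).

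**Figure D3:**
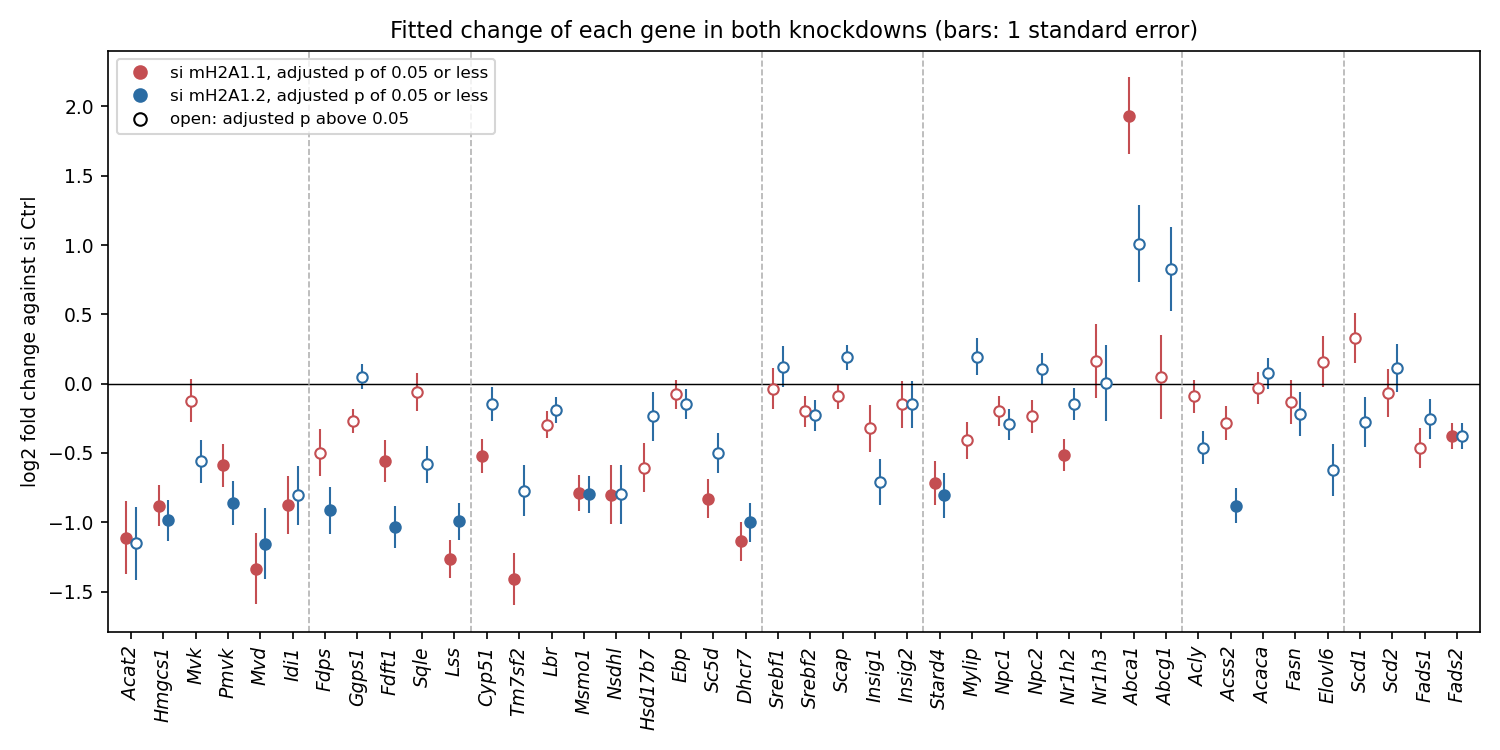
Log2 fold change against si Ctrl (vertical axis) of each of the 42 genes, grouped by step between dashed lines, with bars of 1 standard error from the edgeR model. Filled points have an adjusted p of 0.05 or less. Points of both knockdowns lie below 0 through most of sterol synthesis, and the highest point is Abca1 with si mH2A1.1 (1.93 ± 0.28).

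From lanosterol, demethylation and reduction steps lead to cholesterol. Of the 9 genes of this step, 6 fell with si mH2A1.1 (median log2 fold change -0.79) and 2 with si mH2A1.2 (median -0.50). With the replicate block 8 and 3 fell. Dhcr7 (chr7:143823145-143848410), the reductase of the closing reaction, was at 114, 110.5 and 143 CPM with si Ctrl, 46.9, 66.8 and 53.1 CPM with si mH2A1.1 and 58.2, 62.8 and 62.3 CPM with si mH2A1.2, and no knockdown sample came near a control. The change was -54.5% after the first knockdown (-1.14 ± 0.14, adjusted p = 0.00269) and -50.04% after the second (-1.00 ± 0.14, adjusted p = 0.0121), and both calls held in each of the 9 runs. Msmo1, the oxidase that starts the removal of methyl groups, was at 149, 129 and 149 CPM with si Ctrl, 93.2, 86.6 and 67.3 CPM with si mH2A1.1 and 72.3, 85.6 and 87.98 CPM with si mH2A1.2. Its change was near equal in both knockdowns (-0.79 ± 0.13, adjusted p = 0.00761, and -0.80 ± 0.13, adjusted p = 0.0202), with a difference between them of 0.01 ± 0.13.

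Tm7sf2, a sterol reductase, showed the lowest log2 fold change of the 42 genes with si mH2A1.1, at 16.1, 18.97 and 21.9 CPM with si Ctrl, 7.11, 9.02 and 5.299 CPM with si mH2A1.1 and 11.1, 11.1 and 11.1 CPM with si mH2A1.2. It fell with si mH2A1.1 (-1.41 ± 0.19, adjusted p = 0.00352), was not called with si mH2A1.2 (-0.77 ± 0.18, adjusted p = 0.0625, and 0.0493 with the replicate block), and differed between the knockdowns (-0.64 ± 0.19, adjusted p = 0.0343). Vps51 covers 12.1% of its exon bases on the same strand. Lbr, the lamin B receptor, which carries the same reductase activity in the inner nuclear membrane, was called in no comparison (30.6 to 43.3 CPM over the 9 samples, log2 fold changes -0.30 and -0.19). It was called lower with si mH2A1.1 in the fit with the replicate block (adjusted p = 0.0303). Cyp51, the lanosterol demethylase, was at 133, 133 and 141 CPM with si Ctrl, 114, 90.9 and 79.3 CPM with si mH2A1.1 and 126, 117 and 125 CPM with si mH2A1.2. It fell with si mH2A1.1 (-0.52 ± 0.12, adjusted p = 0.0268), and its si mH2A1.2 samples were not called (-0.15 ± 0.12, adjusted p = 0.622). The difference between the knockdowns missed the threshold (adjusted p = 0.0526).

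Nsdhl, a dehydrogenase of the demethylation complex and the highest of the step per exon length (38.8 ± 9.91 RPKM with si Ctrl), was at 96.6, 92.4 and 143 CPM with si Ctrl, 71.2, 68.96 and 50.6 CPM with si mH2A1.1 and 52.5, 57.5 and 81.3 CPM with si mH2A1.2. Its si Ctrl 3 value was far above those of the other controls, the fall with si mH2A1.1 passed (-0.80 ± 0.21, adjusted p = 0.0399), and the value with si mH2A1.2 did not (-0.80 ± 0.21, adjusted p = 0.0889). Sc5d, the desaturase ahead of Dhcr7, was at 42.6, 43.2 and 53.4 CPM with si Ctrl, 26.6, 27.6 and 24.2 CPM with si mH2A1.1 and 26.9, 33.2 and 38.4 CPM with si mH2A1.2. Sc5d fell with si mH2A1.1 (-0.83 ± 0.14, adjusted p = 0.00818) and was not called with si mH2A1.2 (-0.50 ± 0.14, adjusted p = 0.105), where all 3 samples were again below the controls. Hsd17b7, a reductase, and Ebp, an isomerase of the same step, were called in no comparison without the replicate block. They were at 21.7 to 44.4 and 31.5 to 40.5 CPM over the 9 samples. Hsd17b7 had an adjusted p of 0.05202 with si mH2A1.1, and of 0.0251 with the block. In this step the runs that left out 1 library lost the calls with si mH2A1.1 for Cyp51 in 4 of the 9 runs (highest adjusted p = 0.0878, without si mH2A1.1 3) and Nsdhl in 6 of the 9 runs (highest adjusted p = 0.132, without si mH2A1.1 3), with si mH2A1.2 for Msmo1 in 4 of the 9 runs (highest adjusted p = 0.0785, without si Ctrl 1) and between the knockdowns for Tm7sf2 in 5 of the 9 runs (highest adjusted p = 0.0985, without si mH2A1.1 3).

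Genes of the SREBP system itself encode the regulators described above. None of these 5 was called against si Ctrl, with median log2 fold changes of -0.15 and -0.15. Srebf2, the gene of SREBP-2 and the most abundant of them per exon length (60.9 ± 2.77 RPKM with si Ctrl), was at 447, 451 and 415 CPM with si Ctrl, 393, 419.8 and 331 CPM with si mH2A1.1 and 373, 395 and 355 CPM with si mH2A1.2. Its values were -0.20 ± 0.11, adjusted p = 0.261, and -0.23 ± 0.11, adjusted p = 0.362, so a change of the size seen in the enzymes was not detected. Srebf1 had log2 fold changes of -0.04 ± 0.15 and 0.12 ± 0.15, at 81.5 to 124 CPM, and its isoforms are summed. Insig2 was at 63.9 to 101 CPM over the 9 samples and was not called. Insig1, itself a target of SREBPs, was not called with si mH2A1.2 (-0.71 ± 0.17, adjusted p = 0.0611), where its samples (52.7 to 77.05 CPM) were below the controls (102 to 118 CPM). Scap, the escort protein, was at 37.2, 36.8 and 39.1 CPM with si Ctrl, 34.2, 35.7 and 36.3 CPM with si mH2A1.1 and 44.1, 39.1 and 45.7 CPM with si mH2A1.2, and it was lower with si mH2A1.1 than with si mH2A1.2 (-0.28 ± 0.09, adjusted p = 0.0465). That call was lost in 8 of the 9 runs (highest adjusted p = 0.139, without si mH2A1.2 3). Protein cleavage and nuclear SREBP were not measured by these counts.

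Of the 8 genes of sterol uptake, transport and export, 2 fell and 1 rose with si mH2A1.1 (3 fell and 1 rose with the replicate block). After the other knockdown 1 fell (1 fell and 1 rose with the block). The one that rose was Abca1 (chr4:53030787-53159895), which exports cholesterol to lipid-poor apolipoprotein. It stood at 2.302, 2.85 and 2.78 CPM with si Ctrl, 9.56, 6.59 and 14.2 CPM with si mH2A1.1 and 5.12, 4.25 and 6.63 CPM with si mH2A1.2, so all 6 knockdown samples were above the controls. It was 3.82-fold higher with si mH2A1.1 (1.93 ± 0.28, adjusted p = 0.00453), a call that held in each of the 9 runs. With si mH2A1.2 it was 2.01-fold higher without passing (1.01 ± 0.28, adjusted p = 0.0961), and passed with the replicate block (adjusted p = 0.0365). The difference between the knockdowns passed (0.92 ± 0.27, adjusted p = 0.0332), and it was lost in 4 of the 9 runs (highest adjusted p = 0.126, without si mH2A1.1 3). Abcg1, the partner exporter, was at 1.31 to 2.96 CPM with si Ctrl, 2.07 to 2.19 CPM with si mH2A1.1 and 2.59 to 4.59 CPM with si mH2A1.2, and it was not called (adjusted p = 0.931 and 0.206).

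Stard4, a carrier that moves sterol between membranes, fell like the enzymes, at 67.4, 67.9 and 73.4 CPM with si Ctrl, 46.1, 39.3 and 41.4 CPM with si mH2A1.1 and 28.7, 44.5 and 46.2 CPM with si mH2A1.2. Its values were -0.72 ± 0.16, adjusted p = 0.0217, and -0.81 ± 0.16, adjusted p = 0.0335. Nr1h2, the widely expressed liver X receptor, was at 60.9, 65.2 and 68.6 CPM with si Ctrl, 43.1, 50.4 and 42.9 CPM with si mH2A1.1 and 49.9, 63.8 and 62.3 CPM with si mH2A1.2. Nr1h2 fell with si mH2A1.1 (-0.51 ± 0.12, adjusted p = 0.0228), not with si mH2A1.2 (adjusted p = 0.603), and differed between them (-0.37 ± 0.12, adjusted p = 0.0443). Nr1h3, the other liver X receptor, was low, at 0.537 to 0.829 CPM over the 9 samples. Mylip, a liver X receptor target whose ligase marks lipoprotein receptors for degradation, was at 22.03, 20.3 and 20.5 CPM with si Ctrl, 13.6, 17.6 and 16.2 CPM with si mH2A1.1 and 20.2, 25.2 and 26.5 CPM with si mH2A1.2. Every si mH2A1.1 sample was below every si mH2A1.2 sample, and that difference passed and held in each of the 9 runs (-0.60 ± 0.13, adjusted p = 0.0116). Neither comparison with si Ctrl was called (adjusted p = 0.0747 and 0.534), but that with si mH2A1.1 passed with the replicate block (adjusted p = 0.0397).

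Npc2, which takes cholesterol out of the lysosome with Npc1, had the highest level of the step per exon length (38.1 ± 4.78 RPKM with si Ctrl). It was at 181, 233 and 209 CPM with si Ctrl, 179.8, 183 and 165 CPM with si mH2A1.1 and 198, 238 and 233 CPM with si mH2A1.2, and like Npc1 (59.6 to 94.1 CPM over the 9 samples) it was called in no comparison. The runs that left out 1 library lost the calls with si mH2A1.1 for Stard4 in 4 of the 9 runs (highest adjusted p = 0.0782, without si mH2A1.1 3) and Nr1h2 in 4 of the 9 runs (highest adjusted p = 0.0872, without si mH2A1.1 3), with si mH2A1.2 for Stard4 in 5 of the 9 runs (highest adjusted p = 0.103, without si Ctrl 3), and between the knockdowns for Nr1h2 in 7 of the 9 runs (highest adjusted p = 0.155, without si mH2A1.2 2).

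Fatty acid synthesis draws on the same acetyl-CoA as sterol synthesis. Of the 5 genes of fatty acid synthesis, none was called with si mH2A1.1 and 1 fell with si mH2A1.2 (3 with the replicate block), with medians of -0.09 and -0.46. The gene that fell without the block was Acss2, which activates acetate to acetyl-CoA, at 46.7, 43.99 and 56.00 CPM with si Ctrl, 40.6, 43.8 and 36.1 CPM with si mH2A1.1 and 23.7, 27.9 and 28.1 CPM with si mH2A1.2. The fall with si mH2A1.2 was -0.88 ± 0.12, adjusted p = 0.0116, beside -0.28 ± 0.12, adjusted p = 0.1502, for si mH2A1.1. The si mH2A1.2 samples lay below both other groups, and the call between the knockdowns (0.60 ± 0.12, adjusted p = 0.00814) held in each of the 9 runs, as did that against si Ctrl.

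Acly, which splits citrate to supply acetyl-CoA and was the highest of the step per exon length (37.8 ± 3.25 RPKM with si Ctrl), was at 204, 181 and 214 CPM with si Ctrl, 222, 169 and 172 CPM with si mH2A1.1 and 147, 144 and 144 CPM with si mH2A1.2. Elovl6, which lengthens palmitate, was at 46.8, 53.7 and 36.6 CPM with si Ctrl, 64.2, 49.5 and 39.3 CPM with si mH2A1.1 and 30.4, 32.5 and 26.1 CPM with si mH2A1.2. Against si Ctrl neither passed with si mH2A1.2 (-0.46 ± 0.12, adjusted p = 0.0815, for Acly and -0.62 ± 0.19, adjusted p = 0.1298, for Elovl6), and both did with the replicate block (adjusted p = 0.0426 and 0.0265). Both were higher with si mH2A1.1 than with si mH2A1.2 (0.37 ± 0.12, adjusted p = 0.0499, and 0.78 ± 0.19, adjusted p = 0.01598). Acaca and Fasn, the carboxylase and the synthase that build palmitate, were called in no comparison, at 106 to 145 and 216 to 339 CPM over the 9 samples, with log2 fold changes between -0.22 and 0.07 against si Ctrl.

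Of the 4 desaturases, 1 fell with si mH2A1.1 and none was called with si mH2A1.2 (2 and 1 fell with the replicate block). Scd2 and Scd1 had the highest levels per exon length of the 42 genes. Scd2, which puts a double bond into saturated fatty acids, had 374 ± 53.7 RPKM with si Ctrl, and was at 2089.9, 1732 and 2314 CPM with si Ctrl, 1990.3, 2158 and 1718 CPM with si mH2A1.1 and 2468, 1748 and 2413 CPM with si mH2A1.2. Its groups overlapped, and it was called in no comparison. Scd1, its close paralog, was at 1352, 1144 and 1286 CPM with si Ctrl, 1274, 1947 and 1530.4 CPM with si mH2A1.1 and 1253, 938 and 930.3 CPM with si mH2A1.2. It was higher with si mH2A1.1 than with si mH2A1.2 (0.61 ± 0.18, adjusted p = 0.0353) and called against si Ctrl in neither knockdown. How reads shared by the paralogs were split was up to the authors' estimate, so these values are less certain. Fads2, which desaturates polyunsaturated fatty acids, was at 70.3, 66.96 and 70.4 CPM with si Ctrl, 55.4, 58.04 and 46.5 CPM with si mH2A1.1 and 53.96, 53.7 and 52.1 CPM with si mH2A1.2. It fell with si mH2A1.1 (-0.38 ± 0.09, adjusted p = 0.03296), with the same size of change and no call with si mH2A1.2 (-0.38 ± 0.09, adjusted p = 0.0717, and 0.0468 with the replicate block). Fads1, at 81.05 to 143 CPM over the 9 samples, was not called (adjusted p = 0.0627 with si mH2A1.1). It was lower with si mH2A1.1 in the fit with the replicate block (adjusted p = 0.00892).

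Among the fatty acid genes, the runs that left out 1 library lost the call with si mH2A1.1 for Fads2 in 6 of the 9 runs (highest adjusted p = 0.105, without si mH2A1.1 3). Between the knockdowns they lost Acly in 8 of the 9 runs (highest adjusted p = 0.164, without si mH2A1.1 1), Elovl6 in 2 of the 9 runs (highest adjusted p = 0.0635, without si mH2A1.1 1) and Scd1 in 5 of the 9 runs (highest adjusted p = 0.134, without si mH2A1.2 2).

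The direct comparison sets the 2 siRNA treatments against each other. Total H2afy was lower with si mH2A1.1 than with si mH2A1.2 (-0.46 ± 0.11, adjusted p = 0.0159). Of the 42 genes, 7 were higher with si mH2A1.1 than with si mH2A1.2 and 5 were lower, with a median difference of 0.00. Over all tested genes 22.5% were called (12.0% higher and 10.5% lower), so the calls among the 42 were near the share over all genes. The higher ones were Fdft1, Sqle, Abca1, Acly, Acss2, Elovl6 and Scd1, and the lower ones Ggps1, Tm7sf2, Scap, Mylip and Nr1h2. By step, 3 of the 5 genes of fatty acid synthesis and 2 of the 5 genes of the isoprenoid and squalene step were higher with si mH2A1.1, and none of the 6 mevalonate genes passed the test. In a fit of the samples of these 2 groups alone, 3 were higher and 1 was lower, where 19.8% of all genes were called. The count of higher genes was 4 without si Ctrl 3, 2 without si mH2A1.1 1, 4 without si mH2A1.2 1, 2 without si mH2A1.2 2 and 3 without si mH2A1.2 3. That of lower genes was 3 without any 1 of the si Ctrl samples, 2 without si mH2A1.1 1, 1 without si mH2A1.1 3, 2 without si mH2A1.2 2 and 1 without si mH2A1.2 3. Over all genes 11.2% to 23.0% were called in the runs that left out 1 library, against 22.5% with all samples. A gene that misses the threshold here is not shown to respond alike in both knockdowns.

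**Figure D4:**
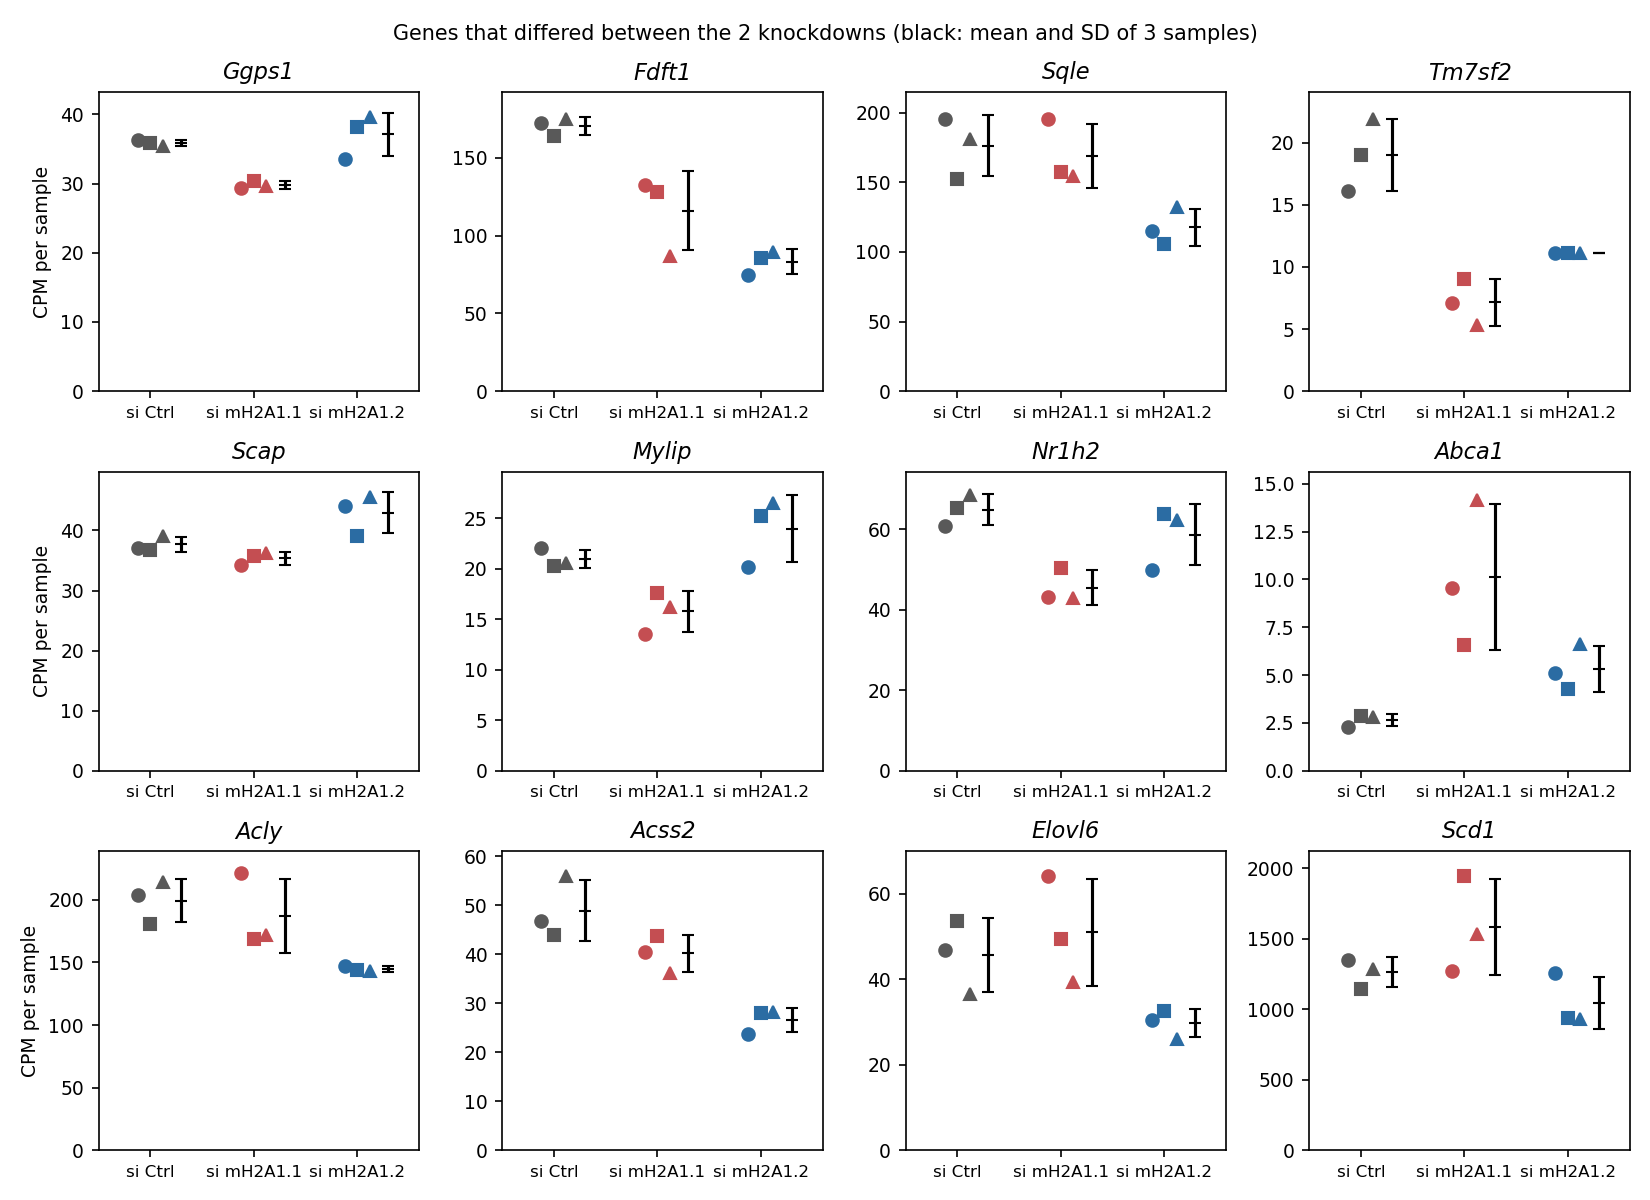
CPM in each sample (vertical axes, from 0) of the 12 genes whose levels differed between the knockdowns. Circles, squares and triangles are replicates 1, 2 and 3, and black marks give the mean and SD. Acss2, Acly, Elovl6 and Sqle are lowest with si mH2A1.2, whereas Tm7sf2, Mylip and Ggps1 are lowest with si mH2A1.1.

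Other markers moved with the groups. With si mH2A1.1 all 8 interferon response genes rose, from a summed level of 31.8 to 38.5 CPM with si Ctrl to 268, 143 and 558 CPM, and none was called with si mH2A1.2 (28.2 to 45.4 CPM). Over these 3 samples the summed sterol enzymes stood at 1499, 1357 and 1149.7 CPM, so the sample with the highest interferon level had the lowest enzyme sum, while between the other 2 the one with more interferon signal had the higher enzyme sum. Of 10 myotube markers, Myog fell with si mH2A1.1 (-0.66 ± 0.14, adjusted p = 0.0204), and Tnnt3 (-0.96 ± 0.18, adjusted p = 0.02796) and Des (-0.62 ± 0.14, adjusted p = 0.0466) fell with si mH2A1.2, as did Ckm with the replicate block (adjusted p = 0.0132). For si mH2A1.1 the block gave 2 lower markers, Myog and Myh3 (adjusted p = 0.0342), and 2 higher, Des (0.0135) and Ckm (0.0211). Of 6 markers of cycling or undifferentiated myoblasts, none was called with si mH2A1.1 and Myf5 fell with si mH2A1.2, while all 6 were higher with si mH2A1.1 than with si mH2A1.2. Against si Ctrl all 6 had positive values with si mH2A1.1 (median log2 fold change 0.66), and 4 were called higher with the replicate block. Of 4 fibroblast markers Lum fell with si mH2A1.1 and none was called with si mH2A1.2, where their summed level was 536 to 559.6 CPM, above the 307 to 405 CPM of the controls (Dcn 0.66 ± 0.23, adjusted p = 0.177). Dcn made most of that sum (504 to 528 CPM). Of the 4 markers, 2 had positive values with si mH2A1.2 and 2 negative ones, Lum among the latter (-0.52 ± 0.40, adjusted p = 0.584). Of 4 macrophage markers Cd68 rose with si mH2A1.1 and the other 3 were too low to be tested. Leaving out 1 library ended the calls of Myog (highest adjusted p = 0.0662), Tnnt3 (0.106), Des (0.1597) and Myf5 (0.149) in at least 1 run. The part of these shifts in the values of the sterol and lipid genes was not tested.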

How the data were processed

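Poly-A RNA of 9 C2C12 cultures was sequenced as single reads of 50 bases. With Salmon and tximport, on GRCm38, the authors made the expected counts of each gene that they deposited as whole numbers, together with a normalized table that was not used here. The annotation release and strandedness are not given in the sources used here, and the labels name mm10. Symbols, positions and exon lengths came from GENCODE M21, which held 52762 of the 52780 genes.

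The counts were tested with edgeR 4.0.16 in R 4.3.3 (TMM scaling, filterByExpr, quasi-likelihood test on all 9 samples, Benjamini-Hochberg adjustment over 19545 genes), and a gene was called at an adjusted p of 0.05 or less. Adjusted p values are from this test unless given as those of the replicate block, which adds the replicate number to the same model, or of a run that left out 1 library and refitted it. The standard error of a log2 fold change was its size over the square root of F. RPKM is CPM per kilobase of exon. The code was tested on simulated data. Alternatives used DESeq2 1.42.0 and limma 3.58.1, and figures matplotlib 3.10.9.

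All 42 genes were accounted for. Values in every sample are given for genes called in at least 1 of the 3 comparisons and for the gene of each step with the highest RPKM. Genes of further lists are named where called against si Ctrl and among the 2 largest such changes of their list. Some that passed with the replicate block alone are named too. Their largest changes between the knockdowns are not all named. The genes and lists were chosen with earlier results of these data known. The study describes the samples as independent biological replicates. Same-numbered si mH2A1.2 and si Ctrl samples deviated together from their group means (correlations over genes of 0.196 to 0.331), so the numbers were taken to pair them, from the data. No label says what a number stands for, but the sample codes of a number run in sequence over the 3 groups. An exact test of 3 against 3 samples cannot give p below 0.1, so no such test was run.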

Additional observations from a re-analysis of the deposited data

How the results depend on the processing

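Counts at an adjusted p of 0.05 or less moved with the tool. For si mH2A1.1 against si Ctrl, all genes called numbered 3354 with DESeq2 and 4065 with the replicate block, against 2171. For si mH2A1.2 against si Ctrl they numbered 1113 with DESeq2, 680 without a filter on low counts and 1005 with the block, against 460.0. The sterol and lipid genes lower there numbered 21 with DESeq2, 16 without that filter and 16 with the block. In each of these fits 1 gene was higher. Between the knockdowns, lower genes numbered 2 without a filter, 1 in a fit of those samples alone and 8 with the block, and higher genes 3 in the fit of those samples alone. Over all genes 11.3%, 19.8% and 29.0% were called in these fits, in that order. Under the stricter call (adjusted p below 0.01, log2 change of 0.8 or more either way) 5, 1 and 0 of the 42 genes were lower in the 3 comparisons, 0 were higher between the knockdowns, and 352, 35 and 1247 of all genes were called. Leaving out each library in turn gave 6 to 18, 3 to 13 and 1 to 7 lower genes, 1 to 1, 0 to 0 and 2 to 5 higher genes, and 605 to 2928, 74 to 544 and 2251 to 4616 of all genes.

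Over these 9 runs 7 of 17, 3 of 10 and 2 of 12 calls were kept in each run, and over the other alternatives at the same threshold 15, 8 and 4. No called value changed sign, and 59 values that were not called did and stayed uncalled. For si mH2A1.1 the same-numbered correlations with si Ctrl were weaker, at 0.0841 to 0.0976, beside -0.0739 to -0.0213 between unlike numbers. The block gave 20 lower genes there. Between the knockdowns the same-numbered correlations were 0.0917 to 0.1159. The causes were not tested.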

Other observations

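Genes that border on this pathway were read from further lists. Of all tested genes 4.93% were lower and 6.18% higher with si mH2A1.1, and 0.982% and 1.37% with si mH2A1.2. Between the knockdowns 12.0% of all genes were higher with si mH2A1.1 and 10.5% lower. In the branch that leads from isoprenoids to dolichol, ubiquinone and prenylated proteins, none of 13 genes fell in either knockdown, and 2 rose with si mH2A1.1, namely Pdss1, the synthase of the ubiquinone tail (1.05 ± 0.24, adjusted p = 0.0233), and Dolk, the dolichol kinase (0.61 ± 0.14, adjusted p = 0.02398). Depletion of macroH2A1.2 gave a rise of Dolk that passed with the replicate block (adjusted p = 0.0355) and not without it (adjusted p = 0.0655). Likewise, depletion of macroH2A1.1 gave a fall of Nus1 that passed with the block alone (-0.36 ± 0.13, adjusted p = 0.0876, and 0.0392 with the block). Of 11 genes of SREBP processing and turnover, 2 fell with si mH2A1.1 (2 fell and 1 rose with the replicate block). Sec24d, a coat protein of the vesicles that leave the endoplasmic reticulum, went from 99.02, 144 and 118 CPM with si Ctrl to 57.3, 64.00 and 60.4 CPM (-0.99 ± 0.15, adjusted p = 0.00544), and Erlin2, which helps to degrade Insig1, from 79.3, 92.3 and 84.9 to 42.4, 62.1 and 54.1 CPM (-0.69 ± 0.13, adjusted p = 0.0115). Its relative Erlin1 fell with si mH2A1.2 (-0.47 ± 0.10, adjusted p = 0.0465). Of 18 tested genes of other sterol handling, Lipa, the lysosomal esterase that frees cholesterol from its esters, rose in both comparisons (0.45 ± 0.11, adjusted p = 0.0307, and 0.56 ± 0.11, adjusted p = 0.0322), and Nceh1, a further cholesterol ester hydrolase, fell with si mH2A1.2 (-0.70 ± 0.10, adjusted p = 0.01299). The replicate block added 2 genes that rose with si mH2A1.2, Lrp1 (0.77 ± 0.19, adjusted p = 0.0688, and 0.0405 with the block), a large endocytic receptor, and Ch25h (1.197 ± 0.32, adjusted p = 0.0883, and 0.0324 with the block), which makes an oxysterol. Both were chosen after their values were seen. For si mH2A1.1 the block gave 2 higher and 2 lower genes in this list.

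Of 24 tested genes of other fatty acid and glycerolipid synthesis, 6 fell and 2 rose with si mH2A1.1 (6 fell and 4 rose with the replicate block). After the other knockdown 3 fell (6 fell and 1 rose with the block). Pcyt2, which makes the activated head group of phosphatidylethanolamine, fell in both (-0.99 ± 0.14, adjusted p = 0.004502, and -0.75 ± 0.14, adjusted p = 0.0289), from 105, 90.6 and 135 CPM to 61.1, 55.9 and 48.7 CPM and 63.2, 64.6 and 68.6 CPM. The elongase Elovl7 (1.71 ± 0.30, adjusted p = 0.009304) and the carboxylase Acacb, which restrains fatty acid oxidation (1.104 ± 0.18, adjusted p = 0.00638), rose with si mH2A1.1. After the other knockdown Acacb was lower with the block (adjusted p = 0.0406) and just missed the threshold without it (-0.83 ± 0.19, adjusted p = 0.0502). Dgat2, of triglyceride synthesis (-1.27 ± 0.27, adjusted p = 0.03896), fell with si mH2A1.2. Genes of fatty acid uptake and oxidation included 5 of 18 that rose with si mH2A1.1 (7 with the replicate block), while none fell and the median was 0.25. Fabp3, the fatty acid binding protein of muscle, rose from 6.75, 6.102 and 8.895 to 41.3, 24.5 and 32.00 CPM (2.17 ± 0.25, adjusted p = 0.00227), and Acadl, a dehydrogenase of fatty acid oxidation, from 143, 143 and 153 to 255, 203 and 266 CPM (0.72 ± 0.12, adjusted p = 0.00622). With si mH2A1.2 Lpl, the lipase that frees fatty acids from lipoproteins, fell (-0.70 ± 0.11, adjusted p = 0.0183), and it was 1 of the 5 that rose with si mH2A1.1 (0.65 ± 0.11, adjusted p = 0.00845). Between the knockdowns 11 of the 18 were higher with si mH2A1.1 and none was lower.

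Leaving out 1 library at a time ended several of these calls in at least 1 of the 9 runs. With si mH2A1.1 the highest adjusted p reached 0.09095 for Pdss1, 0.0912 for Dolk, 0.0515 for Erlin2 and 0.0977 for Lipa. With si mH2A1.2 it reached 0.158 for Erlin1, 0.124 for Lipa, 0.0547 for Nceh1, 0.0997 for Pcyt2, 0.142 for Dgat2 and 0.0654 for Lpl. The calls of Sec24d, Pcyt2, Elovl7, Acacb, Fabp3, Acadl and Lpl with si mH2A1.1 held in each run.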
